A study of Mus musculus with 2 samples.

Results

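Choroid plexus epithelial nuclei were examined in a Slide-tags library of the mouse brain at embryonic day 14 (E14). Slide-tags releases photocleavable spatial barcodes from a bead array into the nuclei of a frozen tissue section, and the nuclei are then profiled by droplet-based single-nucleus RNA sequencing. The members were chosen by their own readout, as barcodes with at least 1000 unique molecular identifiers (UMIs), under 5% mitochondrial UMIs, at least 20 UMIs of Ttr and at least 1 UMI of Htr2c. They numbered 98 of 7997 barcodes of that depth, or 1.23% (exact binomial 95% interval 0.996 to 1.49), of 9037 E14 barcodes and of 10698 barcodes in the series. The other 7899 E14 barcodes of at least 1000 UMIs were the comparison group. The E14 library came from a sagittal section through a purchased, snap-frozen C57BL/6J embryo, and the other library from the hippocampal region of a male C57BL/6J mouse aged 56 days. No genetic change or treatment was stated for either. Each tissue had 1 library, so no difference was tested, no p-value is given, and genes were called by the size of their fold. The intervals below cover counting error, not the spread between embryos. Nuclear positions were not analysed here.

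The choroid plexus is a folded sheet in each brain ventricle, made of a single layer of epithelial cells around a vascular stroma. The epithelium grows out of the dorsal midline of the neural tube, where BMP and Wnt signals from the roof plate and the cortical hem set its fate, and it then secretes cerebrospinal fluid and carries hormones, vitamins and metals between blood and fluid. Its cells bear tufts of cilia on the ventricular surface, and in the embryo they leave the cell cycle as they form these cilia. Ttr encodes transthyretin, the carrier of thyroid hormone and of retinol-binding protein in cerebrospinal fluid, and Htr2c encodes a serotonin receptor for which the choroid plexus is a classical site.

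Members held a minimum of 1457, a median of 13860.5 and a maximum of 103304 UMIs, against a median of 4682 in the other barcodes. The members summed to 2002624 UMIs and the others to 56196396, so 3 counts, the floor used for a sum of 0, stood for 1.498 UMIs per 1000000 UMIs (CPM) in members. Mitochondrial UMIs had a median of 0.122% in members and 0.112% in others, and 1 E14 barcode of any depth reached 5%. Doublet scores were high more often in members: 15 members (15.3%) were among the 653 highest scores of the library, against 7.82% of the other barcodes. The part of doublets in the results was not tested, and without the 653 barcodes 83 members remained, with 1322 genes at least 2-fold higher and 953 lower than in the other barcodes.

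The values that chose the members are a description. Ttr was counted at 20 to 6201 UMIs per member, with a median of 228.5, and made up 0.060% to 10.8% of a member's UMIs, with a median of 1.60%. In the other barcodes the median was 2 Ttr UMIs and the maximum 107. Their Ttr share had a median of 0.0307%, an upper quartile of 0.0695% and a maximum of 1.71%. The lowest share of a member lay under that upper quartile, since the rule sets a count of Ttr UMIs and not a share. Htr2c had a median of 57.5 and a maximum of 1393 UMIs per member. Summed over members, Ttr reached 25790 CPM against 292 in the others, and Htr2c 5233 CPM against 21.9. The members held 75.9% of all Ttr UMIs of the E14 library and 89.5% of all Htr2c UMIs. The remaining Ttr UMIs were spread thinly. In all, 80.5% of the other barcodes held at least 1, and 36.2% did after each barcode was thinned to 1000 UMIs. Ttr stood at 129 CPM in 431 barcodes with radial glia markers, at 303 CPM in 245 with fibroblast or mesenchyme markers and at 239 CPM in 109 with endothelial markers. Each of these classes was defined by at least 4 of 6 markers of its own list and of no other. For Htr2c the shares were 6.04% of the other barcodes at full depth and 1.60% at 1000 UMIs.

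Just inside the threshold, 6 members had 20 to 26 Ttr UMIs, and their median was 4.5 of the 20 other choroid plexus genes. Just outside it, 15 barcodes with 10 to 19 Ttr UMIs and an Htr2c UMI had a median of 2 of those genes. A further 5 barcodes had at least 20 Ttr UMIs but no Htr2c UMI.

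**Figure D1:**
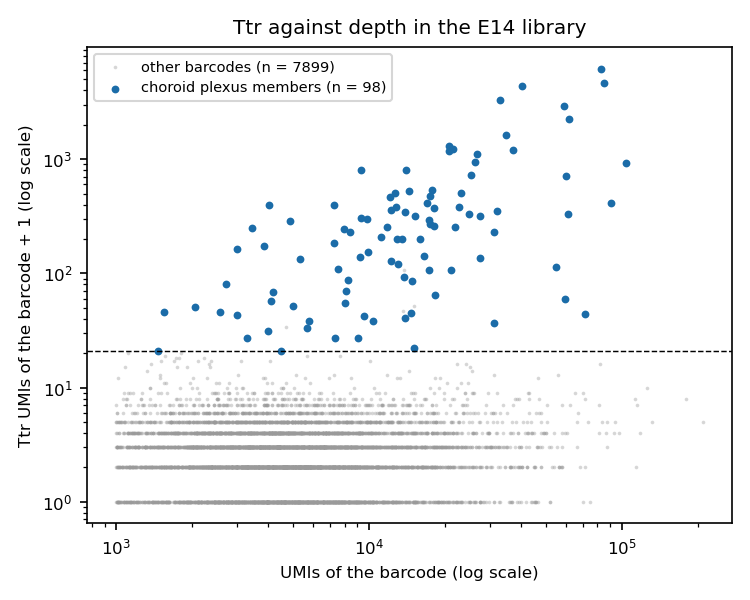
Ttr UMIs plus 1 against total UMIs for each E14 barcode of at least 1000 UMIs, both on log scales, with 98 members in blue, 7899 other barcodes in grey and the Ttr threshold dashed. The members span 1457 to 103304 UMIs, and the deepest of the other barcodes, at 208500 UMIs, lies far under the threshold.

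The label was set beside 20 choroid plexus genes that the rule did not use. Members and lists were chosen with earlier results of these data known, so these genes are a description and not an independent check. A gene counted as measured when the mean of its CPM in members and in others was at least 10, and as higher or lower when the CPM differed at least 2-fold. Of 11081 measured genes, 9.85% were higher in members and 4.9% lower, and 4.55% were at least 4-fold higher. A gene at under 6.67 CPM in the others could pass this filter only through members and then had to be higher, as 348 of the 1091 higher genes did. Counts are therefore also given over genes that passed on the others alone, at 10 CPM or more, of which 5.33% of 10607 were higher and 6.09% lower. That filter was added after the values were seen. Of the 20 genes, 16 passed the filter, 14 were higher in members, 13 of them at least 4-fold, and none was lower. The filter fixed the call of 9 of the 16, and 4 of the 6 genes that passed on the others alone were higher. The median fold of the 16 was 37.2, against 0.992 over all measured genes. Since 9 of the 16 could only be higher, this median was set in part by the filter. The same holds for the list medians below wherever the filter fixed calls. All 20 counted, 18 had a higher CPM in members. At least 5 of the 20 genes were found in 90 members and in 89 of the others (1.13%), and at least 10 in 62 members and in 1 other barcode. These counts were not matched for depth, which had a median of 13860.5 UMIs in members and 4682 in the others.

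The folate receptor gene Folr1 was counted at 308 CPM in members (95% interval 284 to 333) and 3.15 CPM in others, a fold of 97.8 (82.6 to 116). Its UMIs were found in 84 of the 98 members. The chloride channel gene Clic6 reached 385 CPM against 1.49, a fold of 258 (206 to 327), with a median of 3 and a maximum of 94 UMIs per member. Tmem72, a membrane protein gene, stood at 116 CPM against 0.676, and Sostdc1, an extracellular antagonist of BMP and Wnt signals, at 201 CPM against 1.98. Otx2, the homeobox factor needed to form the choroid plexus, had 250 CPM against 10.96 in the others and 17.6 in the radial glia class, and was found in 85 members. Thinned to 1000 UMIs, 35.7% of members held a Clic6 UMI (26.3 to 46.0), against 0.190% of the other barcodes.

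Not every choroid plexus gene was at a high level at this age. Kl, which encodes the anti-ageing protein klotho, had 4 UMIs in all members, or 2.00 CPM against 2.08 in the others. Prlr, the prolactin receptor, had 15 UMIs, or 7.49 CPM against 14.3. Cldn2, a claudin that forms pores in leaky epithelia, was below the filter, at 5.49 CPM in 9 members against 0.0712. The values of Kcnj13, a potassium channel gene (150 CPM against 61.1), are uncertain, since its span overlaps Gigyf2 on the other strand. Whether the counting used strand is not given in the sources used here, and the spans of many genes named here also overlap a gene on the other strand. Among them are Dnah6, Folr1, Otx2, Enpp2, Slc4a2, Car14, Cdc20b, Deup1, Hydin, Dnah9, Dnah11 and Abcg5. Trpm3, Rfx3, Ezr, Spag17, Slc31a1, Thrb and Tenm1 are further examples, and these names are not a full list. The spans of Clic6, Stra6, Chrm3 and Cx3cr1, among others, overlap a gene on the same strand.

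**Figure D2:**
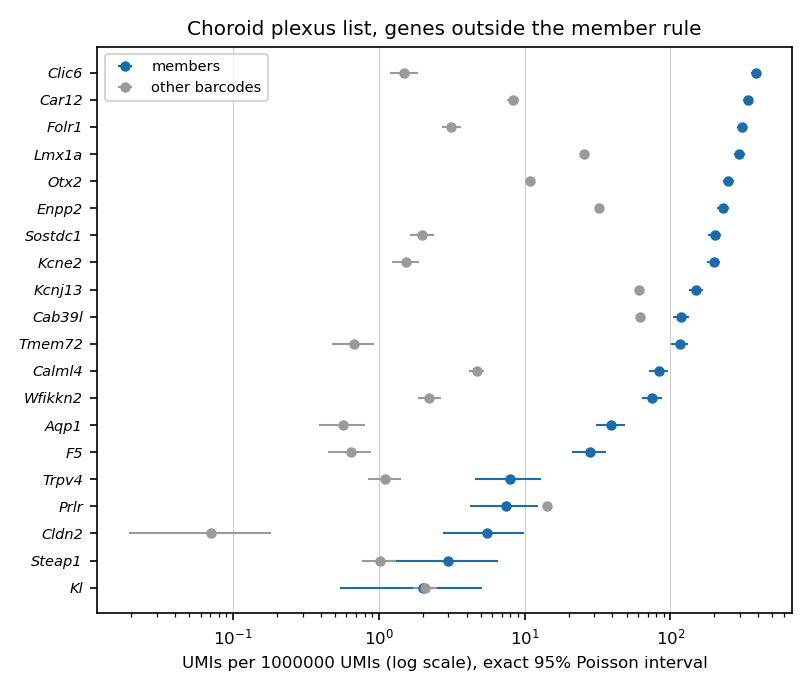
CPM on a log scale of the 20 choroid plexus genes outside the rule, summed over the 98 members (blue) and the 7899 other barcodes (grey), with exact 95% Poisson intervals for counting error. Clic6 lies at 385 against 1.49 CPM, while Kl lies at 2.00 against 2.08 CPM.

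The members were not alike in how purely they carried these genes. The 20 choroid genes summed to a minimum of 2.10, a median of 24.6 and a maximum of 113 UMIs per 10000 UMIs of a member. A list of 11 neuron genes, among them Dcx, Tubb3 and Stmn2, summed to a minimum of 0, a median of 27.4 and a maximum of 85.1 per 10000 in members, and to a median of 52.0 in the others. All 11 neuron genes had a lower CPM in members, 5 of them at least 2-fold. Tubb3, which encodes a neuronal tubulin, had 217 CPM against 467, and Slc17a6, a vesicular glutamate transporter, 38.4 CPM against 120. Over the 98 members the choroid list and the neuron list had a Spearman rho of -0.552, and the Ttr share and the choroid list one of 0.853. Both are descriptions over nuclei of 1 library, which share their total UMIs as denominator.

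After these values were seen, the members were described apart at 10 neuron-list UMIs per 10000. There were 25 members under that limit (25.5%), against 7.47% of the other barcodes, and 13 members lay within 5 of it. In the 25, the choroid list had a median of 50.8 per 10000, Ttr a median of 2.93% of UMIs, and the median depth was 7261 UMIs. Their 11 neuron genes were all at least 2-fold lower than in the others, with a median fold of 0.0575. The limit was set on the sum of these genes, so the low values of this list follow from the choice of the 25. The median fold of the measured choroid genes was 75.4. Folr1 was 201-fold and Clic6 599-fold higher than in the others in these 25. At the other end, 16 members had Ttr under 0.5% of their UMIs. The member with the lowest share, 0.060%, held 71292 UMIs, 9 of the 20 choroid genes and 34.2 neuron-list UMIs per 10000. Whether the neuron UMIs came from doublets, from free RNA or from the nuclei themselves was not tested.

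**Figure D3:**
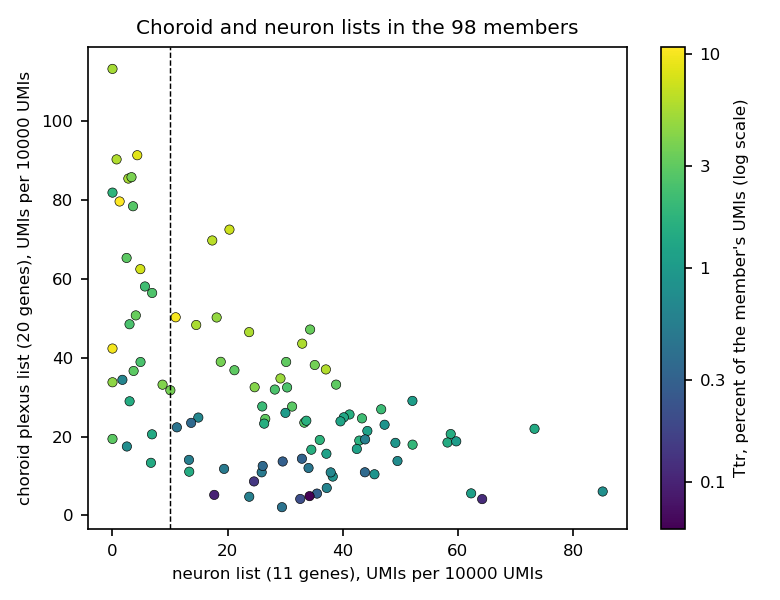
Each point is 1 of the 98 members, with the neuron list on the x axis and the choroid plexus list on the y axis, both in UMIs per 10000 UMIs, coloured by the Ttr share on a log scale. The 25 members left of the dashed line at 10 have a median of 50.8 choroid-list UMIs per 10000, against 24.6 over all members.

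Genes of ion and water transport, by which the epithelium drives sodium, bicarbonate and chloride into the fluid, were higher in members for 14 of 25 measured genes and lower for 1, with a median fold of 2.46. The filter fixed 7 of these calls, and 5 of the 16 genes that passed on the others alone were higher. Clic6, Car12, Kcne2 and Aqp1 count here and also among the 20 choroid plexus genes. Lists further below share genes with those 20 as well, so the counts of the lists are not independent. The bicarbonate carriers differed in size. Slc4a5, an apical sodium bicarbonate cotransporter, was at 147 CPM against 1.37, a fold of 108 (83.4 to 140). Slc4a2, the basolateral anion exchanger, was at 103 CPM against 11.9, a fold of 8.67, and Slc4a10 at 127 CPM against 61.5, a fold of 2.07, which was 1.98 and no longer called with Ttr at 40 UMIs or more. The carbonic anhydrases Car12 (340 CPM against 8.35) and Car14 (106 against 6.48) and the potassium channel subunit Kcne2 (198 against 1.53) were also higher. The water channel gene Aqp1 had 78 UMIs in 35 members, or 38.9 CPM (30.8 to 48.6) against 0.569.

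Of the sodium pump subunits, Atp1b1 was within 2-fold, at 68.4 CPM against 63.5. Slc12a2, the sodium, potassium and chloride cotransporter of the apical membrane, was within 2-fold, at 119 CPM against 83.8.

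Trpm3, a calcium-permeable channel gene, was counted at 7048 CPM in members and 671 CPM in others, a fold of 10.5 (10.3 to 10.7), and was found in 97 of 98 members with a median of 84 and a maximum of 1186 UMIs. It was also high in the mesenchyme class, at 1939 CPM. Trpm3 and Htr2c each carry microRNA genes on their own strand. In the annotation of build GRCm38 (mm10), 2 mature miRNAs lie within Trpm3 (chr19:22139046-22995410) and 11 within Htr2c (chrX:146962513-147197277), all outside the host's exons. A pair is printed to show which small RNAs share a transcription unit with these abundant transcripts, from RefSeq, 5′ to 3′, with the seed (bases 2 to 8) in capitals; mature miRNAs were not measured in this library.
mmu-miR-204-5p, in Trpm3, chr19:22750610-22750631, plus strand: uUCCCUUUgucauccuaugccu
mmu-miR-448-3p, in Htr2c, chrX:147158281-147158302, plus strand: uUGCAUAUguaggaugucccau

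Among carriers of nutrients, hormones and drugs, 12 of 20 measured genes were higher and none lower, with a median fold of 3.11. The filter fixed 5 of these calls, and 5 of the 13 genes that passed on the others alone were higher. Slco1a4, an organic anion transporter of the bile salt and thyroid hormone type, was at 316 CPM against 0.658, a fold of 479 (344 to 687), in 82 of 98 members. It was also nearly absent from the endothelial class, at 0.865 CPM. Slc6a15, a transporter of neutral amino acids, was at 890 CPM against 30.7 with a median of 9.5 and a maximum of 181 UMIs per member. The zinc transporter Slc39a12 was at 66.9 CPM against 1.87. Slc23a2, which takes up vitamin C, was at 207 CPM against 72.8, and Slc31a1, which takes up copper, at 89.9 against 27.9. Other familiar barrier transporters were not higher. Abcg2, a drug efflux pump, stood at 21.97 CPM against 42.0 in all others and 432.5 in the endothelial class, and Slco1c1, a thyroid hormone transporter, at 18.5 against 18.2 and 513 in the endothelial class.

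Of 21 genes of retinoid and thyroid hormone handling, 11 were measured, 6 were higher, counting Ttr itself, and none was lower. Stra6, the receptor that takes up retinol from its binding protein, was at 47.9 CPM against 6.98, with 39.5 CPM in the mesenchyme class. Rdh10, which oxidises retinol, was at 40.9 CPM against 15.98, while Aldh1a1 had no UMI in members and Aldh1a2 stood at 4.49 CPM against 5.78. The thyroid hormone receptor Thrb was at 40.4 CPM against 10.4. Of 9 measured genes of iron and copper handling, 2 were higher: Slc31a1, and Heph, a ferroxidase, at 34.5 CPM against 7.33.

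Secreted proteins are a main output of this epithelium, and 11 of 16 measured genes of that list, Ttr included, were higher and none lower, with a median fold of 4.87. The filter fixed 3 of these calls, and 7 of the 12 genes that passed on the others alone, Ttr among them, were higher. Clu, the chaperone clusterin, was at 523 CPM against 13.5, and was found in 85 members. Igfbp2, which binds insulin-like growth factors, was at 590 CPM against 69.8, in 93 members; the mesenchyme class had 390 CPM. Igf2, an imprinted growth factor, was at 118 CPM against 58.2, far under the 705 CPM of the mesenchyme class. Its fold of 2.03 (1.77 to 2.32) lay near the limit and was not called under some alternatives. It was 1.94 after thinning to 1000 UMIs, 1.95 with Ttr at 10 UMIs or more and 1.96 at a minimum of 500 UMIs. Enpp2, the enzyme autotaxin, was at 230 CPM against 32.3, but the endothelial class had 250 CPM and the mesenchyme class 190. Wfikkn2, an inhibitor of GDF8 and GDF11, was at 74.9 CPM against 2.22. Shh, a morphogen secreted by the hindbrain choroid plexus, had 2.00 CPM in members against 3.74 and was below the filter. The hedgehog list had none of 5 measured genes higher and 1 lower.

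Axoneme genes, which build the moving core of the cilium, were higher nearly throughout. Of the 56 genes of that list, 48 were measured, 47 were higher in members, 44 of them at least 4-fold, and none was lower; the median fold was 11.7. The filter fixed 29 of these calls, and 14 of the 15 genes that passed on the others alone were higher. The whole list summed to 5364 CPM in members and 500.03 in others, and to between 341 and 480 in the radial glia, mesenchyme and endothelial classes. Dnah6, named as a marker of these nuclei, had 376 CPM against 3.01, a fold of 125 (105 to 148), in 86 members. Among the dynein motors, Dnah9 was at 301 CPM against 25.1 and Dnah11 at 165 against 10.7. Of the central apparatus genes, Hydin was at 156 CPM against 6.33, Spef2 at 232 against 4.15 and Spag17 at 68.4 against 4.22. Drc7, of the regulatory complex between the doublet microtubules, had the largest fold of the list, at 45.4 CPM against 0.285. All but 1 of the 56 genes, tested or not, had a higher CPM in members. The exception was Dnah17, at 65.9 CPM against 85.2. Counts of Dnah7a, Dnah7b and Dnah7c, which are near copies of each other, are uncertain as single genes.

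**Figure D4:**
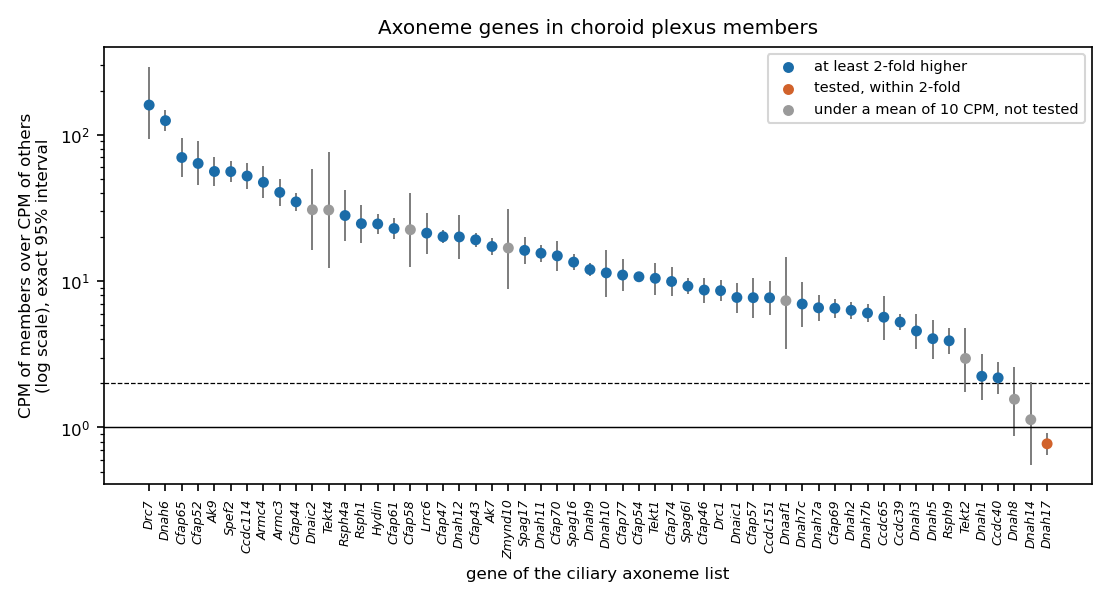
Fold of CPM in members over CPM in other barcodes, on a log scale, for the genes of the ciliary axoneme list, with exact 95% intervals for counting error; blue genes were at least 2-fold higher, orange within 2-fold and grey below the filter. The folds run from 160 for Drc7 to 0.774 for Dnah17.

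RFX factors, which switch on ciliary genes in many cell types, bind the X-box motif. Its core letters, GTTGCC, were searched on both strands of the 250 bases before each start in the RefSeq promoters of GRCm38. They were present in 16 of the 52 promoters that matched 48 of the 56 axoneme genes (30.8%), against 10.4% of all 32841 promoters. By gene the share was 14 of 48 (29.2%), against 11.8% of all 27018 genes. The longer form, GTTGCC with GG after 2 further letters, was in 3 of the 52 promoters (5.77%) against 1.83%. Dnah7a, Dnah7b and Dnah7c are among the matched genes, and as near copies they are not independent matches. Their UMI counts, which enter the choice of windows below, are uncertain as single genes. A match is a description of the letters and not a bound site. The windows below belong to the 4 genes with the most UMIs in members whose match lay in a window clear of annotated exons, and show the core letters in their surroundings. The core that was matched is in capitals, and GGCAAC is its reverse complement; the strand is that of the gene. The Spag16 window holds a further core in lower case, gttgcc, on the strand of the gene.
Cfap44, chr16:44394648-44394697, plus strand: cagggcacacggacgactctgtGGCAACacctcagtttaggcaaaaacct
Spag16, chr1:69826837-69826886, plus strand: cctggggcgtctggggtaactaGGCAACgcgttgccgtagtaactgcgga
Dnah7b, chr1:46066668-46066717, plus strand: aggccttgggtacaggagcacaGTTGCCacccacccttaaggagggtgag
Dnah7a, chr1:53706957-53707006, minus strand: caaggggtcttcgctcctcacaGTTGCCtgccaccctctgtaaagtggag

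The factors that start multiciliation were higher as well, in 9 of 14 measured genes, with none lower and a median fold of 3.42. The filter fixed 4 of these calls, and 2 of the 7 genes that passed on the others alone were higher. Gmnc, which encodes GEMC1, an early regulator of the multiciliated state, was at 414 CPM against 8.74, a fold of 47.4 (42.4 to 53.1), with a median of 3 and a maximum of 92 UMIs per member. Its partner in the same gene family, Mcidas, was at 28.96 CPM against 1.62, but in 18 members. Foxj1, which drives the genes of motile cilia, was at 48.9 CPM against 1.17, in 44 members. The p53 family member Trp73 was at 54.4 CPM against 16.2. The RFX genes differed: Rfx2 was at 40.4 CPM against 6.92 and Rfx3 at 868 against 410, while Rfx1 and Rfx4 were within 2-fold, Rfx4 at 42.9 CPM against 49.6 and 118 in the radial glia class.

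Deuterosome genes were held by a fraction of the members. Deuterosomes are the structures on which multiciliating cells make many centrioles at a time, and Deup1 encodes their scaffold. Cdc20b, which acts in the release of the new centrioles, was at 229 CPM in members against 7.17, but 54 members had no Cdc20b UMI, 19 had 1 or 2, and 25 had at least 3, with a maximum of 65. These 25 (25.5%, interval 17.2 to 35.3) were set apart after their values were seen, so their contrast with the other 73 members is a description. Mcidas had 57 UMIs in the 25 members and 1 UMI in the 73. Deup1 had 118 UMIs in the 25 and 42 in the 73, or 312 CPM against 25.9, a fold of 12.1 (8.42 to 17.6). Ccno, the atypical cyclin O of the same step, had 18 UMIs against 3, and Myb, a factor of early multiciliation, 24 against 8. Mcidas and Ccno lie close to Cdc20b, the gene of the split, on the plus strand of chromosome 13. The part of this closeness in their contrasts was not tested. Plk4, the kinase that starts a new centriole, was at 89.9 CPM against 25.9 and Foxj1 at 111 CPM against 34.5.

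The same 25 members had a median of 107 axoneme-list UMIs per 10000, counted without Dnah6, against 32.5 in the 73. Gmnc differed less, at 547 CPM against 384, a fold of 1.43 (1.21 to 1.67), and the Ttr share had a median of 1.71% in the 25 and 1.55% in the 73. The choroid list had medians of 26.0 and 24.0 UMIs per 10000. The neuron list was lower in the 25, with a median of 14.5 per 10000 against 29.6, and 10 of the 25 were also among the members with few neuron UMIs. Depth was lower as well, with medians of 10348 and 15052 UMIs, and the part of either measure in the difference was not tested. Of 18 members with at least 3 Deup1 UMIs, 15 had at least 3 Cdc20b UMIs. 4930540M03Rik, which lies antisense to Deup1, was at 20.0 CPM against 0.142.

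Cdc20b (chr13:113035111-113091195) hosts the miR-449 family on its own strand, outside its exons. The 5p arms are printed because they share their seed, in capitals, which is a known feature of the miR-34 and miR-449 families. Their levels were not measured here.
mmu-miR-449a-5p, chr13:113037549-113037570, plus strand: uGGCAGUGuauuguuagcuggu
mmu-miR-449c-5p, chr13:113036008-113036028, plus strand: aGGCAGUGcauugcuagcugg

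**Figure D5:**
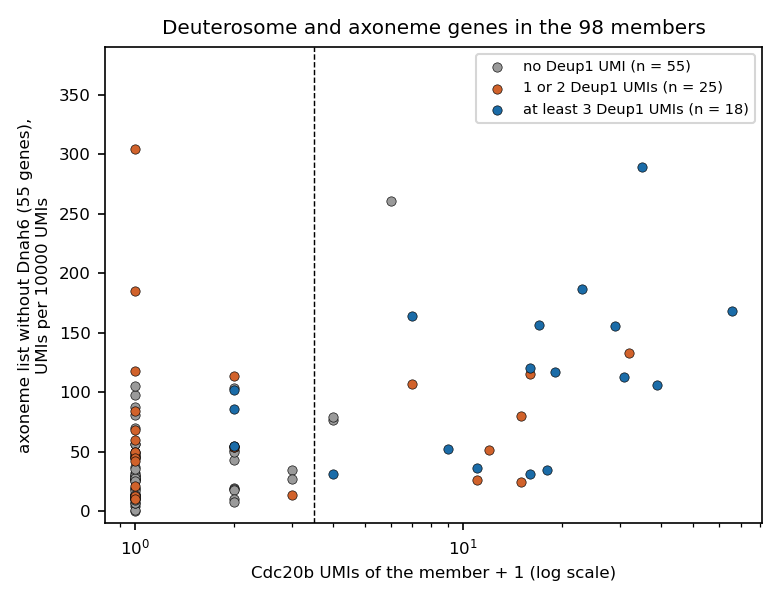
Each point is 1 of the 98 members, with its Cdc20b UMIs plus 1 on a log x axis and the axoneme list without Dnah6 in UMIs per 10000 on the y axis, coloured by its Deup1 UMIs. The 25 members right of the dashed line have a median of 107 axoneme UMIs per 10000 against 32.5 left of it, where single members reach 304.

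Genes of the roof plate and cortical hem, the source of this epithelium, were higher for 14 of 18 measured genes and lower for none, with a median fold of 3.81. The filter fixed 3 of these calls, and 9 of the 13 genes that passed on the others alone were higher. The list was as high in the mesenchyme class, with a median of 25.6 UMIs per 10000 against 21.4 in members and 2.55 in all others, and a sum of 2395 CPM against 2741 in members. Msx1, a BMP-responsive homeobox gene, was at 26.5 CPM against 0.890, and Bmp4 at 38.9 CPM against 1.26. Bmp7 was at 73.9 CPM against 8.26, with 97.7 CPM in the mesenchyme class. Lmx1a, a roof plate homeobox gene, was at 297 CPM against 25.7, and 52.7 in the radial glia class. Of the Wnt pathway, Rspo2, a secreted booster of Wnt signals, was at 654 CPM against 55.7, in 80 members, and Wls, which carries Wnts to the cell surface, at 293 CPM against 71.6, in 88 members.

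The hem genes Rspo3 and Wnt8b rested on fewer members. Rspo3 was at 275 CPM against 79.6, a fold of 3.45, with 1 member holding 112 of its 550 UMIs. Among the 68 members with Ttr at 1% of UMIs or more, its fold was 0.896. Wnt8b was at 48.9 CPM against 9.79, a fold of 5.00, but was found in 16 members, 1 of which held 30 of its 98 UMIs. Its fold was 1.85 at that Ttr limit and 1.20 with each barcode thinned to 1000 UMIs. In the 25 members with few neuron UMIs the folds were 0.987 for Rspo3 and 1.24 for Wnt8b, while that of Rspo2 was 12.0.

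Of 9 measured genes that mark forebrain position, 1, Dmrta2 (22.97 CPM against 8.59), was higher in members and none lower. No gene of the hindbrain list passed the filter. Its 12 genes summed to 10.5 CPM in members and 9.11 CPM in the others, and 2 of them had a higher CPM in members. The 7 Hox genes of the list had 0 UMIs in members, which allows up to 1.498 CPM for each, and 53 UMIs in all others. These counts come from 2002624 UMIs in members and 56196396 in the others, so the 0 does not show a difference in position.

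Of 13 measured junction and polarity genes, 8 were higher and none lower, with a median fold of 5.86. The filter fixed 5 of these calls, among them those of the keratins and Cldn1 below, 11 of the 24 list genes were under it, and 3 of the 7 genes that passed on the others alone were higher. The whole list summed to 2016 CPM in members, 1670 in others and 3036 in the endothelial class. The keratins of simple epithelia, Krt8 (26.0 CPM against 0.196) and Krt18 (47.4 against 0.391), were among them, as was Cldn1, a claudin of tight junctions, at 20.97 CPM against 0.480. Ezr, which links microvilli to actin, was at 244 CPM against 24.7, in 86 members. Cdh2, the neural cadherin, and Tjp1, a tight junction scaffold, were within 2-fold, at 661 CPM against 903 and 192 against 239. The epithelial cadherin Cdh1 had 0.499 CPM in members, from 1 nucleus.

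Of 12 serotonin receptor genes, 3 were measured, and 1 was higher, Htr2c, which chose the members. Htr2b was at 42.4 CPM against 42.6 and Htr4 was lower, at 9.99 against 29.3, and 4 receptor genes had no UMI in members. Of the insulin-like growth factor genes, 3 of 9 measured were higher (Igf1, Igf2 and Igfbp2) and H19 was lower, at 10.5 CPM against 33.8, while the receptor Igf1r was within 2-fold, at 536 CPM against 486.

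Cell cycle genes summed to a median of 7.33 UMIs per 10000 in members, against 2.00 in the others and 12.9 in the radial glia class. Of 14 measured, 3 were higher (Cdk1, Cenpf and Brip1) and none lower, with a median fold of 1.78. Top2a, a topoisomerase of dividing cells, was at 258 CPM against 135 and 322 in the radial glia class, and Mki67 at 90.9 against 61.7 and 146. At a limit of 20 cell-cycle UMIs per 10000, 10 members (10.2%, interval 5.00 to 17.97) and 8.24% of the other barcodes lay above it, and 11 members lay within 5 of the limit. That limit was also set after the values were seen.

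Markers of further cell types were mostly not higher. No radial glia gene of 6 differed 2-fold, from Slc1a3 at 102 CPM against 140 to Hes5 at 28.0 against 19.4. Of 5 measured fibroblast genes, Pdgfra was higher (44.4 CPM against 14.8, and 199 in the mesenchyme class) and Col3a1 lower (25.5 against 73.5). Of 6 endothelial genes, Cldn5 and Flt1 were lower and Kdr was higher, at 48.4 CPM against 21.5, but with each barcode thinned to 1000 UMIs its fold was 0.630 and that of Pdgfra 1.19. Of the macrophage genes, Mrc1 was lower and Cx3cr1 was counted at 211 CPM against 58.4, in 82 members, while C1qa, C1qb, Csf1r and Ptprc were each under 6 CPM. The Cx3cr1 span overlaps Gorasp1, Csrnp1 and Xirp1 on the same strand, so its counts are uncertain. Of 5 measured erythroid genes, Hbb-y, an embryonic globin, was lower, at 84.4 CPM against 197.

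The 20 largest folds included Slco1a4, Clic6, Htr2c, Tmem72 and Drc7, described above. Htr2c chose the members. All other genes of the 20 were at under 6.67 CPM in the other barcodes, so they passed the filter only through members and had to be higher. The ranking is therefore a description. The largest fold was that of C230072F16Rik, a transcript without a protein name, at 77.4 CPM against 0.160, in 38 members. Others of the 20 were A1bg (30.0 CPM against 0.0712, from 4 UMIs in the others), unnamed transcripts such as Gm41654 and Gm48447, and Abcg5, a sterol transporter subunit, at 26.0 CPM against 0.107. Cdh3, placental cadherin, was at 118 CPM against 0.516, in 58 members, and Wdr63, an inner dynein arm gene, at 149 CPM against 0.854, in 67 members.

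The largest folds in the other direction were smaller. Among genes of at least 100 CPM in the other barcodes, the 15 with the lowest fold were 2.77-fold to 3.64-fold lower in members, with 9530059O14Rik the lowest, at 27.5 CPM in members. They included Chrm3, a muscarinic acetylcholine receptor, at 31.0 CPM against 112, Dpp10, an auxiliary subunit of neuronal potassium channels, at 94.9 against 327, Slc17a6 and the teneurin gene Tenm1. At a fold of 4, 8 of all measured genes (0.0722%) were lower in members. In the 25 members with few neuron UMIs, Chrm3 had no UMI and Dpp10 had 3, or 9.07 CPM.

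The rule was also applied to the adult library. None of its 1427 barcodes of at least 1000 UMIs met it, which allows a share of up to 0.210%. The highest Ttr count of an adult barcode was 1 UMI, although 100 adult barcodes held Htr2c. The libraries had 1 barcode sequence in common, and it was not that of a member.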

How the data were processed

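Nuclei of a sagittal section of a mouse E14 embryo and of adult mouse hippocampus (1 library each) were profiled by Slide-tags snRNA-seq. The deposited values were UMI counts per gene and barcode, which the authors made with Cell Ranger on mm10 with intronic reads included; the file headers give versions 7.0.1 (E14) and 6.1.2 (adult). The methods also name CellBender, which removes background RNA, for the embryo, and whether it was applied to these counts is not given in the sources used here. The E14 library held 58924407 UMIs over 32285 genes.

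Counts were summed over members and over other barcodes and divided by the group's UMIs (CPM). Folds are ratios of CPM with exact conditional binomial 95% intervals, CPM have exact Poisson and shares exact binomial (Clopper-Pearson) intervals; a sum of 0 was set at 3 counts. Genes with a mean of at least 10 CPM over both groups were measured. Text names genes of 23 fixed lists (325 genes), the 20 highest and the 15 lowest folds; some list genes count in their list but are not reported here. Members and lists were chosen with earlier results of these data known, and some genes belong to several lists. Doublets were scored with the Scrublet method (scanpy 1.11.5); its automatic threshold marked 0 barcodes, so the 653 highest scores, the number expected from the loading, were marked. Thinning drew 1000 UMIs per barcode without replacement. Spans came from GENCODE and promoters and miRNAs from RefSeq, both GRCm38. The fold computation was tested on simulated data. Alternatives were other limits on Ttr, Htr2c, UMIs, mitochondrial share, CPM and fold, equal weight per barcode, other denominators, thinning and leaving out high doublet scores.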

Additional observations from a re-analysis of the deposited data

How the results depend on the processing

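Each tissue had 1 library, so no replicate could be left out. No paired analysis was possible because each group had 1 library and no result came from a test. The 98 members became 68 with Ttr at 1% of UMIs or more, and 83 to 113 under the other planned limits. The 1091 higher and 543 lower genes became 2198 and 1355 with barcodes thinned to 1000 UMIs, where sums are small, 626 and 344 at a mean of at least 25 CPM, and 504 and 8 at a fold of 4. The lower genes became 1022 with Ttr at 1% or more and 953 without the highest doublet scores. Of alternatives chosen after the data were seen, a filter of 10 CPM in the other barcodes alone gave 565 higher genes, and the 25 members with under 10 neuron-list UMIs per 10000, gave 2269 higher and 2364 lower genes. The cause of these changes was not tested. Of 100 genes checked, 78 were called, and 74 to 78 of them kept the call under each alternative. Their sizes were less stable: the fold left its counting interval for 63 of the 100 genes after thinning, 51 with Ttr at 1% or more, 47 without the highest doublet scores, 44 with equal weight per barcode and 85 in the 25 members, and for 0 to 4 under the others, besides the turned genes. The direction of called genes turned for Rspo3, at folds of 0.896 with Ttr at 1% or more and 0.987 in the 25 members, and for Kdr, at 0.630 after thinning. Depth limits low genes: a gene at 0 in members may reach 1.498 CPM.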
